A study of Mus musculus with 12 samples.

Results

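The Notch genes examined here were 10 genes taken by symbol: the receptors Notch1, Notch2, Notch3 and Notch4, the ligands Dll1, Jag1 and Jag2, and the transcriptional targets Hes1, Hey1 and Heyl. Of these, 9 had a promoter methylation value in at least 1 library, out of 12098 genes in all; Notch4 was not analysed here. Each of the 9 was represented by a single RefSeq promoter, and none shared its values with another gene. The assay was reduced representation bisulfite sequencing (RRBS), where DNA is cut with the enzyme MspI at CCGG, a size range is isolated from a gel, and bisulfite turns unmethylated cytosine into a base read as thymine. The material was DNA of colon epithelial cells from C57BL/6 mice on chow. The 3 induced mice had raised Dnmt3b, an enzyme that methylates unmethylated CpGs, and received doxycycline at 0.5 g/l in their water over 3 months; the 3 control mice had water without the drug. The labels name neither the promoter that drives the transgene nor whether the control mice carried it, and give no age. Only induced mice received doxycycline, so the drug and the induction cannot be told apart. Every mouse contributed 2 libraries, of short (40 to 120 nt) and of long (120 to 220 nt) MspI fragments, which gives 4 groups of 3 libraries. Values are mean CpG methylation levels in percent, and changes are induced minus control in percentage points. The reads behind a level are unknown, and a level between 0% and full methylation cannot be told apart as some of the cells or some of the CpGs.

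Notch receptors are membrane proteins that are cleaved when a Delta or Jagged ligand on a neighbouring cell binds them; the released intracellular part joins the DNA-binding protein RBPJ and switches on Hes and Hey genes, which encode repressors. In the intestinal crypt Notch1 and Notch2 keep stem and progenitor cells dividing and hold back the secretory fate set by Atoh1. Notch3 and Heyl are best known from the smooth muscle of blood vessels.

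Promoters of 3 of the 9 genes gained methylation in the short fraction: Heyl, Jag2 and Notch3 rose by 44.3, 41.3 and 22.3 points (limma, Benjamini-Hochberg adjusted p under 0.05 over 10027 genes; none fell). Of the 5 genes with values in all long-fragment libraries, Jag2 alone rose, by 53.4 points (6127 genes tested). Notch1, Notch2, Jag1 and Hes1 had mean levels of 1.5% or less in both groups of the short fraction, and Dll1 and Hey1 lay between, with induced means of 5.21% and 2.45%. Genes called higher made up 27.6% of all genes tested among short fragments and 23.2% among long ones, and genes called lower 0.0798% and 0.0163%, so 3 of 9 and 1 of 5 are near the share of all genes. Because all 9 genes had control means under 5%, the genes that start there are a closer background: 24.2% of 8575 such genes among short fragments and 19.8% of 4953 among long ones were called higher. The plot of levels by gene and library shows the induced points of Heyl, Jag2 and Notch3 apart from those of the other genes.

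**Figure D1:**
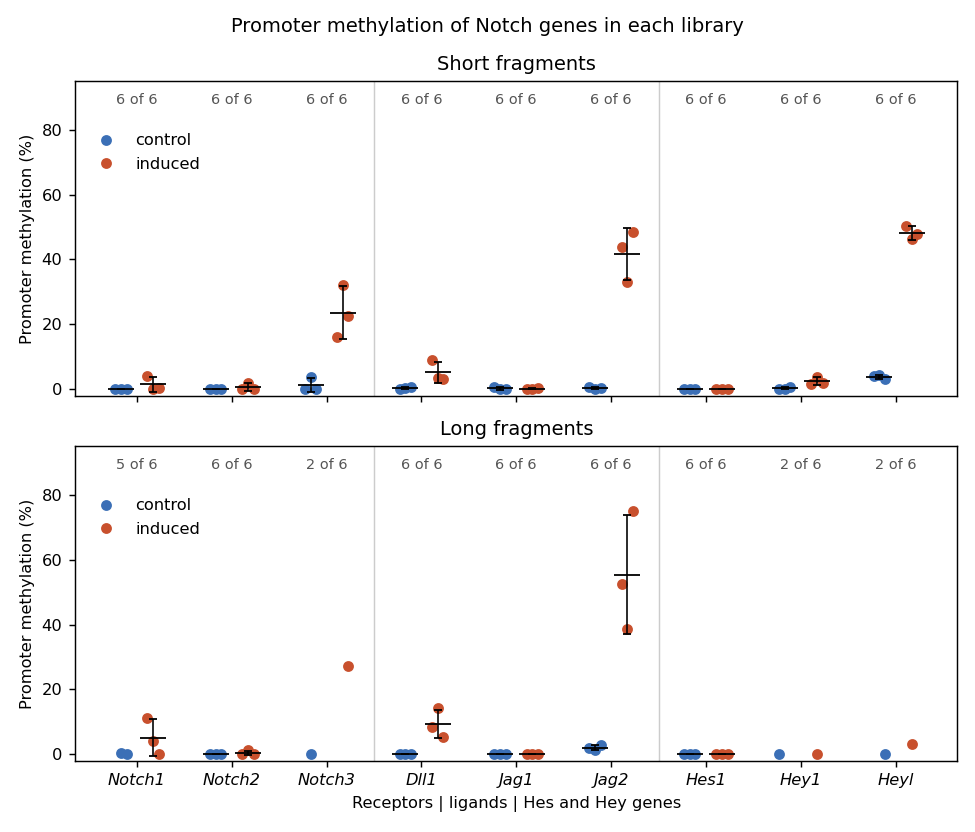
Promoter methylation (percent, vertical axis) of 9 Notch genes in every library with a value, short fragments above and long fragments below; each point is 1 mouse, the bar and whiskers are the mean and SD of 3 mice, and the grey text counts the libraries with a value. Induced levels in the short fraction stand highest for Heyl, Jag2 and Notch3 (means 48.2%, 41.7% and 23.6%), and Jag2 reaches a mean of 55.4% among long fragments.

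The promoter sequence of these genes differs widely in CpG content. RefSeq promoter windows of GRCm38.p6, which need not be the windows behind the deposited values, were matched by Gene ID for 7 of the 10 genes (8 windows, since Dll1 has 2); Hes1, Hey1 and Heyl had no entry. The 250 bases before the start are shown for 2 genes that rose, Jag2 (chr12:112929496-112929745, minus strand) and Notch3 (chr17:32166891-32167140, minus strand), and for 2 that stayed low, Jag1 (chr2:137116521-137116770, minus strand) and Notch2 (chr3:98013288-98013537, plus strand). They are written 5′ to 3′ with every CpG in capitals.
Jag2: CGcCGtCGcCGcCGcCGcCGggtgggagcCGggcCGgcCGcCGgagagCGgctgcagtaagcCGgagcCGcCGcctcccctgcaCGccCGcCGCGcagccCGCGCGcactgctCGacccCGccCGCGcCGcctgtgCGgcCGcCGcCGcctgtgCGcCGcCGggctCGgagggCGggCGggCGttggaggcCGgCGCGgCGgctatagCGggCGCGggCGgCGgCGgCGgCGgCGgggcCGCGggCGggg
Notch3: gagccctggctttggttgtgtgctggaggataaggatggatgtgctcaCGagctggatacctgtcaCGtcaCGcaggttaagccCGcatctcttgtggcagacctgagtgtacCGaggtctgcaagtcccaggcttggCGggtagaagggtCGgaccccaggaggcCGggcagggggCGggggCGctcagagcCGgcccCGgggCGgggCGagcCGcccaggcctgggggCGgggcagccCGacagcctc
Jag1: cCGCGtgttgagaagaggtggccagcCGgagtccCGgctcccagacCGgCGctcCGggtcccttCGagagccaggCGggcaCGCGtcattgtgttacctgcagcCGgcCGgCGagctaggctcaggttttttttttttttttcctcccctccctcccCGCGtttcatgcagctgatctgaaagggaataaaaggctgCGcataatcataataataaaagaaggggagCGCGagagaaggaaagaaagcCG
Notch2: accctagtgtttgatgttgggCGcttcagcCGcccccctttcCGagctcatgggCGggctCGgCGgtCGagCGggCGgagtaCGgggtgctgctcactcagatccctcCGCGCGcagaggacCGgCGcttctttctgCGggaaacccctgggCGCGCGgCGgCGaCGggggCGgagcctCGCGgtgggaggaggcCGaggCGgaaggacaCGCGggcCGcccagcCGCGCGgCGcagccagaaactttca

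The window of Jag2 held 54 CpGs, more than 99.96% of the windows of genes tested in the short fraction, and that of Notch3 held 17, the median of those windows. The windows of Jag1 and Notch2, whose methylation stayed low, held 20 and 34, and the Notch1 window held 16. The Notch2 window held more CpGs than the Notch3 window. Over all genes tested in the short fraction with a window, 36.8% of those with fewer than 10 CpGs were called higher, 25.0% with 10 to 19, 21.3% with 20 to 29 and 26.1% with 30 or more. The MspI site CCGG, which reads the same on both strands, occurred 7 times in the Jag2, 6 times in the Jag1, 3 times in the Notch3 and 1 time in the Notch2 and Notch1 windows; 78.2% of windows of genes tested in the short fraction and 47.05% of all windows hold at least 1. Consecutive sites gave 1 fragment of 40 to 120 bases inside the windows of Jag2 (98 bases) and Jag1 (50 bases) and none in those of Notch3 and Notch2. Fragments that reach past a window are not counted by this.

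Among the receptors, Notch3 was the one that rose. In the short fraction Notch3 was at 0%, 3.92% and 0.01% in control mice 1, 2 and 3 and at 16.05%, 32.15% and 22.6% in induced mice 1, 2 and 3. The groups did not overlap: the lowest induced mouse stood well above control mouse 2, the only control mouse clearly over 0. The means were 1.31% ± 2.26 and 23.6% ± 8.10 (SD, n = 3 each), a change of 22.3 points (95% interval 10.1 to 34.5, limma adjusted p = 0.0247). This call was lost without control mouse 1, 2 or 3 (limma adjusted p = 0.0981, 0.0724 and 0.0969) or induced mouse 3 (0.0775), with changes of 21.6, 23.6, 21.6 and 22.8 points. Among long fragments Notch3 had values in 2 libraries only, 0% in control mouse 2 and 27.4% in induced mouse 3, which allows no test.

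Notch1 and Notch2, the receptors of the crypt, did not pass the test in either fraction. Notch1 was at 0.06%, 0% and 0% in control mice and 4.17%, 0% and 0.34% in induced mice of the short fraction. Its groups overlapped, and induced mouse 1 was the only library above 1%. The change was 1.48 points (95% interval -1.87 to 4.84, limma adjusted p = 0.541). Among long fragments Notch1 was at 0.30% and 0% in control mice 2 and 3 and at 11.3%, 4.08% and 0% in induced mice 1, 2 and 3, and control mouse 1 had no value. Induced mouse 1 was again the highest, and the change was 4.96 points (95% interval -6.91 to 16.8, limma adjusted p = 0.581 over the genes with values in at least 2 libraries of each group, of which 20.7% were called higher). Notch2 was at 0% in all 6 control libraries, and in both fractions induced mouse 2 alone was above 0, at 2.05% and 1.19%. Its changes were 0.683 points (95% interval -1.03 to 2.40) and 0.397 points (95% interval -0.616 to 1.41), and neither passed (limma adjusted p = 0.568 and 0.584).

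The 2 Jagged ligands went apart. Jag2, a ligand for which inner ear, limb and thymus development are known sites of action, was at 0.55%, 0.07% and 0.49% in control mice 1, 2 and 3 and at 43.8%, 32.9% and 48.4% in induced mice 1, 2 and 3 among short fragments. The change was 41.3 points (95% interval 29.8 to 52.8, limma adjusted p = 0.00254), and no removal of a single library took it over the threshold. Among long fragments Jag2 was at 2.03%, 1.21% and 2.74% and at 52.6%, 38.6% and 74.99%. Induced mice stood above control mice without overlap in both fractions, and in both mouse 3 was the highest and mouse 2 the lowest of the induced mice. The long-fragment change was 53.4 points (95% interval 26.5 to 80.3, limma adjusted p = 0.0235). That call was lost without control mouse 1, 2 or 3 (limma adjusted p = 0.0933, 0.0943 and 0.0918) or induced mouse 1 (0.0668), with changes of 53.0 to 54.8 points.

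Jag1, the Jagged ligand that is mutated in Alagille syndrome, was at 0.77%, 0.11% and 0.04% in control mice and 0%, 0.19% and 0.38% in induced mice of the short fraction. The groups overlapped, with the highest value in control mouse 1, and the change was -0.117 points (95% interval -0.771 to 0.538, limma adjusted p = 0.791). Without control mouse 1 it turned to 0.115 points (limma adjusted p = 0.678). Among long fragments the 6 values lay between 0% and 0.09%, and the change was 0.0433 points (95% interval -0.0721 to 0.159, limma adjusted p = 0.586). At Jag1 the intervals end below 1 point in both fractions, whereas at Jag2 they begin above 26 points.

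Dll1, the Delta ligand that signals from secretory precursors to their neighbours, had higher levels in induced mice that did not pass the test. It was at 0.04%, 0.28% and 0.78% in control mice and 9.02%, 3.44% and 3.18% in induced mice among short fragments, and at 0%, 0% and 0.10% and at 8.33%, 14.2% and 5.47% among long fragments. In both fractions every induced mouse was above every control mouse, and no induced mouse reached 15%. The changes were 4.85 points (95% interval 0.0352 to 9.66) and 9.31 points (95% interval 2.76 to 15.9), which did not pass (limma adjusted p = 0.147 and 0.0643). Without induced mouse 1 the short-fragment change was 2.94 points and passed (limma adjusted p = 0.00495). The long-fragment change passed without induced mouse 2 or 3 (limma adjusted p = 0.0254 and 0.0407) at 6.87 and 11.2 points. On an arcsine square root scale, which spreads out low levels, both changes passed (limma adjusted p = 0.0330 and 0.00718).

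In the short fraction the targets held both the largest rise and the lowest induced level. Heyl, a Hey-family repressor, was at 3.99%, 4.43% and 3.18% in control mice and at 50.4%, 46.4% and 47.8% in induced mice of the short fraction. The 3 mice of each group lay close together and the groups far apart, with means of 3.87% ± 0.634 and 48.2% ± 2.03 (SD, n = 3 each). The change was 44.3 points (95% interval 41.2 to 47.4, limma adjusted p = 0.000114), and no removal of a single library took it over the threshold. Among long fragments Heyl had values only in control mouse 3 (0%) and induced mouse 2 (3.03%), which allows no test. Induced mouse 2 was at 46.4% among short fragments, where libraries with the same number are taken as 1 mouse.

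Hes1, the main Notch effector of the crypt, had the lowest induced mean of the 9 genes among short and of the 5 genes among long fragments. It was at 0.03%, 0.05% and 0.03% in control mice and 0.19%, 0.08% and 0.16% in induced mice among short fragments. Induced mice were above control mice without overlap, but by 0.107 points (95% interval -0.0337 to 0.247, limma adjusted p = 0.271). Among long fragments Hes1 was at 0% in all 3 control mice and at 0.06%, 0.03% and 0% in induced mice (limma adjusted p = 0.676). Hey1, a second Hey-family repressor, was at 0.21%, 0.02% and 0.79% in control mice and 1.64%, 3.93% and 1.79% in induced mice of the short fraction. Its groups did not overlap either, and the change of 2.11 points did not pass (95% interval 0.166 to 4.06, limma adjusted p = 0.121). Without induced mouse 2, the highest, the change was 1.38 points and passed (limma adjusted p = 0.0458). Hey1 had 2 long-fragment values, 0.17% in control mouse 1 and 0% in induced mouse 2.

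By induced mean in the short fraction, the order was Heyl (48.2% ± 2.03), Jag2 (41.7% ± 7.92), Notch3 (23.6% ± 8.10), Dll1 (5.21% ± 3.30), Hey1 (2.45% ± 1.28), Notch1 (1.5% ± 2.32), Notch2 (0.683% ± 1.18), Jag1 (0.19% ± 0.19) and Hes1 (0.143% ± 0.0569; SD, n = 3 each). Heyl and Jag2 overlapped between mice, and so did every pair of neighbours from Dll1 down. The induced mice of Jag2 lay just above those of Notch3, whose lowest lay above the highest of Dll1. In control mice Heyl was also the highest, followed by Notch3 at 1.31% ± 2.26, and the other 7 genes had control means of 0.37% or less. All 3 induced mice were above all 3 control mice for 6 of the 9 genes in the short fraction (39.5% of all genes tested) and for 2 of 5 in the long fraction (38.2%), and the reverse was seen for none (0.908% and 0.277% of all genes).

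Many other genes rose further than the 3 Notch genes did. The change of Heyl was larger than that of 84.6% of genes tested in the short fraction, that of Jag2 larger than 83.7% and that of Notch3 larger than 78.1%. Dll1 stood above 68.1% of genes, and Jag1 above 7.98%. Among long fragments Jag2 stood above 87.4% and Dll1 above 68.3% of genes. Rises above 20 points occurred in 3 of the 9 genes, against 22.8% of all genes tested and 17.6% of those under 5% in control mice. The median change over the 9 genes was 2.11 points in the short fraction, where it was 0.50 points over all genes, and over the 5 genes of the long fraction it was 0.397 points, against 0.943 points.

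**Figure D2:**
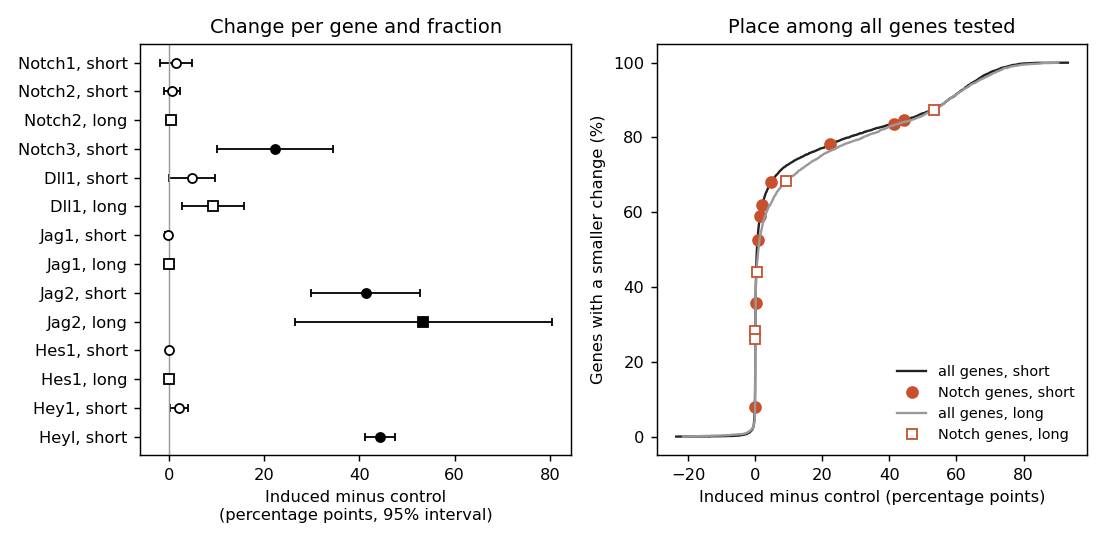
Left, change in promoter methylation (induced minus control, percentage points) with its 95% interval from limma for each Notch gene and fraction, filled where the adjusted p was under 0.05; right, the share of all genes tested that had a smaller change (percent), with the Notch genes marked on the curves of both fractions. Jag2 and Heyl lie at 41.3 to 53.4 points, and the intervals of Jag1 and Hes1 are narrower than their symbols.

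For the 5 genes with values in all 12 libraries the change in long fragments was set against that in short fragments. A single limma fit was used with mouse as a random block, libraries of a group with the same number being taken as 1 mouse. None of the 5 passed this test, against 4.71% of 5309 genes that did. The long change minus the short change was 12.1 points for Jag2 (95% interval -11.96 to 36.1, adjusted p = 0.715) and 4.46 points for Dll1 (95% interval -2.42 to 11.3, adjusted p = 0.616). In every induced mouse Jag2 was higher among long than among short fragments, by 8.78, 5.68 and 26.6 points in mice 1, 2 and 3. Control mice were also higher among long fragments at Jag2, by 1.48, 1.14 and 2.25 points. At Dll1 induced mouse 2 was at 3.44% among short and 14.2% among long fragments, while mouse 1 was at 9.02% and 8.33%, so the order of the induced mice changed between fractions. For Notch2, Jag1 and Hes1 the differences were -0.287, 0.16 and -0.0767 points, and that of Jag1 turned to -0.065 points without control mouse 1.

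**Figure D3:**
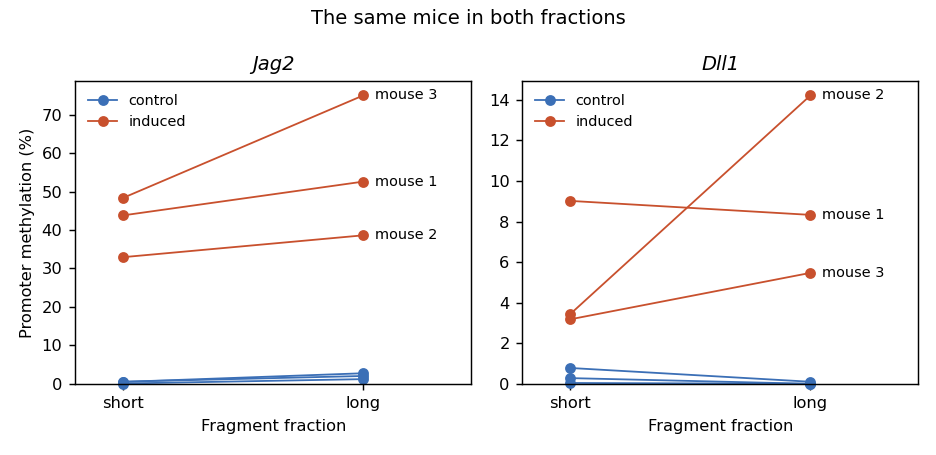
Promoter methylation (percent, vertical axes differ) of Jag2 and Dll1 in the short- and long-fragment library of each mouse, joined by a line. The induced mice keep their order at Jag2 (mouse 3, 1, 2 from the top) and not at Dll1, where mouse 2 goes from 3.44% to 14.2%.

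The promoters next to Jag2 did not pass the test, nor did Rrp1b next to Notch3, and 1 of those next to Heyl rose. The nearest genes with short-fragment values on either side of Jag2 were Cdca4 and Nudt14, whose means were 0.0733% or less in both groups. Next to Notch3 stood Rrp1b, at 24.2% in control and 22.6% in induced mice. Next to Heyl the nucleotidase gene Nt5c1a went from 1.66% to 61.1% (limma adjusted p = 0.000960), and Pabpc4 on the other side was at 0.0567% and 0.0167%. Of the 18 neighbours of the 9 genes 4 rose, against 27.6% of all genes tested. The other 3 lay beside Notch genes that did not pass: beside Jag1 the synaptic gene Snap25 went from 0.147% to 65.9% (limma adjusted p = 0.000170) and, on the other side, Btbd3 from 22.3% to 43.1% (adjusted p = 0.0334, lost without mouse 1 or 3 of either group, at 0.0834 to 0.117, and in 1 fit over both fractions, at 0.128), and beside Hes1 the gene Lrrc15 went from 1.81% to 71.5% (adjusted p = 0.000526). Btbd3 has 2 listed promoters, and the change at 1 of them was 40.1 points, where that of their mean was 20.8 points. None of the neighbours of Notch1, Notch2, Dll1 and Hey1 passed. Nt5c1a, Snap25 and Lrrc15 passed the test after the removal of any single library.

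Genes with the most similar profile were found by the root mean square difference over the 12 libraries, among 5308 other genes. For Jag2 they were the neural factor Neurog2, at 4.42 points, and Evc and Evc2, ciliary genes with values identical to each other, at 5.10 points. For Dll1 they were Mcam at 1.54, Lrrc26 at 1.59 and Tspan33 at 2.10 points. Jag1, Hes1 and Notch2 each had 2164 to 2200 genes within 1 point, so their profile is that of a large share of the genes.

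The rest of the pathway, 77 further genes of which 64 were matched, was described by role. In the short fraction 16 of 59 tested genes rose and 1 fell, which is 27.1% higher against 27.6% of all genes, with a median change of 0.413 points. In the long fraction 15 of 46 rose and none fell, 32.6% against 23.2% of all genes, with a median of 3.81 points. The plot of changes by role shows where these rises lie.

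**Figure D4:**
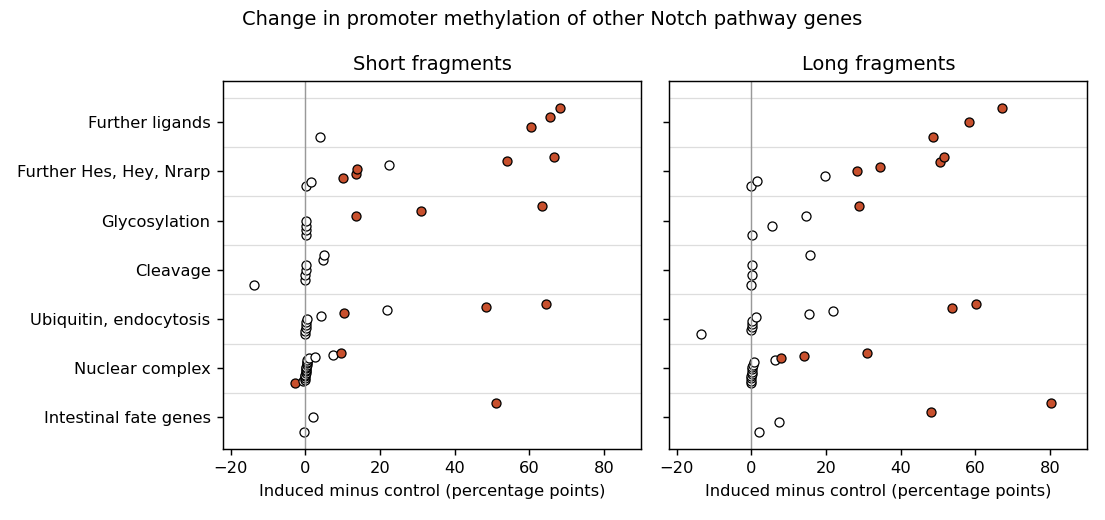
Change in promoter methylation (induced minus control, percentage points) of other Notch pathway genes by role, short fragments left and long fragments right; each point is 1 gene, filled where the limma adjusted p was under 0.05. Filled points are 3 of 4 further ligands and 5 of 8 further Hes and Hey genes in the short fraction, and no gene of receptor cleavage in either.

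Further ligands rose in 3 of 4 cases among short fragments and in 3 of 3 among long ones. Of all genes tested, 27.6% and 23.2% were called higher, and the list holds few genes. Dner, a Delta-like protein of neurons, went from 8.49% ± 2.01 to 76.6% ± 9.27 among short fragments and from 1.87% ± 1.52 to 69.1% ± 10.5 among long ones (SD, n = 3 each, limma adjusted p = 0.000994 and 0.00258). Dll3, a Delta protein of the embryonic somites, went from 13.4% to 78.9% and from 9.50% to 67.8%, and the Delta-like gene Dlk2 from 8.01% to 68.4% and from 0.157% to 48.7%. The short-fragment calls of these 3 genes held after the removal of any single library. Dll4, the endothelial Delta ligand, was at 13.9% and 17.8% in the short fraction and did not pass (limma adjusted p = 0.282). Among long fragments the call of Dlk2 was lost without control mouse 1, 2 or 3 (limma adjusted p = 0.0746 to 0.0752) and that of Dll3 without any single control mouse or induced mouse 1 or 2 (0.0699 to 0.137).

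Among further Hes and Hey genes 5 of 8 rose among short fragments and 4 of 7 among long ones. The shares of all genes called higher were 27.6% and 23.2%. Helt, a Hey-related gene of the midbrain, went from 2.29% to 68.9% and from 0.583% to 52.2%, and Hes3 from 0.917% to 54.9% and from 0.127% to 50.7%. Hes5, a Notch target of neural progenitors, went from 0.247% to 13.9% in the short fraction (limma adjusted p = 0.00166) and was at 0% and 19.6% among long ones, which did not pass (adjusted p = 0.0743; without induced mouse 3 it passed, at 0.00208). Hes2 was at 1.72% and 24.2% among short fragments and did not pass (limma adjusted p = 0.0590; 0.0244 and 0.0445 without induced mouse 1 or 3). It did pass among genes with a mean of at least 1% and on the arcsine square root scale. The same held with trend and robust settings and in 1 fit over both fractions. Among long fragments Hes2 rose, from 0% in each control mouse to 34.3% ± 3.35 (SD, n = 3). Nrarp, a feedback inhibitor of Notch, was at 0.363% or less in every group mean, and Hes6 at 3.83% or less. Short-fragment calls of Hes7 and Hey2 were lost without any single control mouse or induced mouse 2 or 3 (limma adjusted p = 0.0510 to 0.0692 and 0.0763 to 0.153), and long-fragment calls of Hey2 and Helt without any single control mouse (0.0521 to 0.0699 and 0.0502 to 0.0522).

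Enzymes that cleave the receptors and enzymes that glycosylate them were counted apart. Beside both stand the shares of all genes called higher, 27.6% among short and 23.2% among long fragments. None of the genes of receptor cleavage passed, of 7 tested among short and 4 among long fragments; Adam10, which cuts the receptor outside the membrane, had group means of 0.123% or less in both fractions. Not all were low: Psenen, a gamma-secretase subunit, was at 18.95% in control and 5.26% in induced mice among short fragments, and Aph1c, another subunit, at 0.273% and 16.0% among long ones, and neither passed (limma adjusted p = 0.237 and 0.107). Among enzymes that glycosylate the receptors 3 of 7 rose among short fragments and 1 of 4 among long ones. Lfng, a Fringe enzyme that tunes ligand choice, went from 5.58% to 36.6% and from 15.5% to 44.2% (limma adjusted p = 0.00929 and 0.0107), and its long-fragment call was lost without control mouse 3 (0.0552). Gxylt2 went from 1.42% to 64.7% in the short fraction. Poglut1 went from 0.21% to 13.7%, and its call was lost without any single control mouse or induced mouse 3 (limma adjusted p = 0.0865 to 0.142). Pofut1, which adds fucose to Notch, was at 0.11% or less in every group mean.

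Of the ubiquitin ligases and endocytic regulators 3 of 11 rose among short fragments and 2 of 10 among long ones. Neither count exceeds the share of all genes tested that were called higher, 27.6% among short and 23.2% among long fragments. Dtx1 and Dtx3, genes of the Deltex family, went from 12.3% to 76.7% and from 6.20% to 54.6% among short fragments. Among long fragments they went from 9.30% to 63.0% and from 1.15% to 61.4%. All 4 calls held after the removal of any single library. Mib1 and Itch, ligases for ligand and receptor, had group means of 0.203% or less. In the nuclear complex 1 of 19 genes rose among short and 3 of 14 among long fragments. That is 5.3% and 21.4% of this list, against 27.6% and 23.2% of all genes tested. Rbpj was at 0.47% or less in every group mean. Maml1, the coactivator, rose from 0.447% to 9.97% among short fragments, and Aes, a Groucho-related corepressor, fell from 3.14% to 0.237%; the call of Aes was lost without control mouse 1 or induced mouse 2 (limma adjusted p = 0.0574 and 0.0540) and among genes with a mean of at least 1% (0.107). Among long fragments Kat2a went from 61.1% to 92.1%. Kat2b went from 0.407% to 8.37%, and its call was lost without any single control mouse or induced mouse 2 (limma adjusted p = 0.123 to 0.150).

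Of the fate genes that Notch controls in the intestine, Neurog3, the factor of enteroendocrine precursors, went from 5.33% ± 1.37 to 56.3% ± 4.97 among short fragments and from 6.96% ± 3.30 to 55.0% ± 6.96 among long ones (SD, n = 3 each, limma adjusted p = 0.000487 and 0.00272). Gfi1, a transcriptional repressor that acts within the secretory lineage, went from 0% in each control mouse to 80.3% ± 8.36 among long fragments (limma adjusted p = 0.00107). Atoh1, the switch to the secretory fate, was at 0.163% and 2.32% among short fragments and 0.337% and 7.76% among long ones and did not pass (limma adjusted p = 0.390 and 0.0741; without induced mouse 1 the latter was 0.00848). Sox9, a crypt progenitor factor, was at 2.10% or less in every group mean; its long-fragment change of 2.09 points did not pass (limma adjusted p = 0.0759; 0.0211 without induced mouse 1).

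The marker promoters of the labelled cell type that could be tested were mostly low in both groups. Many named markers had no match: 8 of 16 of colon epithelium were matched and 6 of 12 of endothelium. For smooth muscle, pericytes and fibroblasts 7 of 12 were matched, and for immune cells 2 of 12. Of 5 colon epithelial markers tested in the short fraction, among them Epcam, Cdh1 and Cdx2, all had means under 5% in both groups and none passed the test. Of 7 tested in the long fraction none passed either, and 6 had means under 5% in both groups, the other being Krt18 at 22.8% and 30.2%. In the short fraction, where Notch3 and Heyl rose, so did 3 of 4 endothelial markers and 5 of 6 markers of smooth muscle, pericytes and fibroblasts, against 27.6% of all genes tested. In the long fraction, where Notch3 and Heyl could not be tested, 2 of 2 and 3 of 3 such markers rose, against 23.2%. Mean levels over the 4 endothelial markers were 20.4% to 24.9% in control and 74.2% to 78.8% in induced libraries of the short fraction. The control level came mostly from Eng, at 85.1%, as the other 3 had control means of 3.96% or less. Over the smooth muscle and fibroblast list the levels were 6.62% to 7.28% and 52.5% to 62.97%. The 1 immune marker tested in the short fraction, Lck, was at 0.37% and 0.113% and did not pass, and in the long fraction Coro1a went from 12.6% to 73.6%. Kdr, the endothelial VEGF receptor, went from 1.99% to 65.4%, and Myh11, the smooth muscle myosin, from 9.75% to 76.1% in the short fraction. The genes of these lists that did not pass there were Eng, at 85.1% and 91.1%, and Pdgfra of fibroblasts, at 0.473% and 13.5% (limma adjusted p = 0.563 and 0.417). Among long fragments Pdgfra went from 0% in the control mice to 66.5% in the induced mice (limma adjusted p = 0.0179). These are levels of promoter methylation and give no measure of which cells were present, and the part of other cell types in the rises of Notch3 and Heyl was not tested.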

How the data were processed

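Each of 12 libraries came with 1 table that lists genes and RefSeq promoters with a mean CpG methylation level, a fraction from 0 to 1 deposited by the authors (unit per the file headers). Not given in the sources used here were the aligner, the genome build, how promoters were bounded, any filter on coverage, and the bisulfite conversion rate; bisulfite also reads hydroxymethylcytosine as methylated. No read counts are given, so the depth behind a level is unknown and no counting interval can be given. There were 10358 to 10838 genes in a short-fragment library and 7278 to 8108 in a long-fragment one; no pair of libraries of a fraction shared more than 2.53% of values above 0.

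Fractions were turned into percent. Genes listed in each of the 6 libraries of a fraction were compared between induced and control mice with limma 3.58.1 in R 4.3.3 (lmFit, eBayes, two-sided, Benjamini-Hochberg over 10027 or 6127 genes, threshold 0.05); the steps were tested on simulated data. Intervals are limma's 95% intervals. Differences between fractions were tested as an interaction over 5309 genes with mouse as a random block, since the series design gives both fractions from each mouse. Libraries of a group with the same number were taken as 1 mouse (consensus correlation 0.0674). Deviations from group means had correlations of 0.0559 to 0.613 between fractions for the same number and -0.486 to 0.314 for different numbers. These ranges overlap, so the correlations alone do not show which libraries share a mouse. Figures and summaries used Python 3.11.15, numpy 2.4.6, pandas 2.3.3 and matplotlib 3.10.9. Sequences are RefSeq promoter windows of GRCm38.p6, shown for the 3 genes with the largest and the 3 with the smallest change where a window exists. A RefSeq gene table of that assembly, in which 99.82% of Gene IDs were found, served to match symbols and order neighbours.

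The genes and lists were chosen with earlier results of these data known. All 10 Notch genes are named; other pathway genes are named by role, up to 6 that passed with the largest change and up to 2 that did not with the smallest, and a few others, such as Dll4, Atoh1, Adam10, Aph1c, Psenen and Rbpj, were chosen after their values were seen. Alternatives were genes with values in at least 2 libraries of each group, a mean of at least 1%, an arcsine square root scale, eBayes with trend and robust settings, a replicate block, 1 fit over both fractions, single promoters, and leaving out each library. Some genes that belong to the lists or lie next to a Notch gene are counted but not reported here by name.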

Additional observations from a re-analysis of the deposited data

Results flagged for a closer look

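The limma interaction test covered the Notch genes and the other pathway genes with values in all 12 libraries. Some genes of the nuclear complex changed differently in the 2 fractions, among them Maml1, Kat2a and Kat2b. Most genes of the complex in this test did not pass, Rbpj among them (limma adjusted p = 0.780). Of all 5309 genes tested, 4.71% passed. Maml1 went from 0.447% to 9.97% among short fragments and was at 0.0633% and 0.42% among long ones, a long change minus short change of -9.17 points (limma adjusted p = 0.00451; 0.0530 without control mouse 1). Kat2a, an acetyltransferase, was at 32.4% and 34.9% among short and went from 61.1% to 92.1% among long fragments, a difference of 28.4 points (limma adjusted p = 0.0156; 0.0540 to 0.0663 without control mouse 1 or 2 or induced mouse 2). Kat2b was at 0.813% and 0.0933% among short and 0.407% and 8.37% among long fragments, a difference of 8.68 points (limma adjusted p = 0.0385; 0.0995 to 0.206 without control mouse 1, 2 or 3 or induced mouse 2).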

How the results depend on the processing

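Among the alternatives tried for the 9 Notch genes, 194 of the values per gene kept their direction if called and their side of the threshold, 9 lost a call and 8 gained one. Heyl and Jag2 in the short fraction were past the threshold in every alternative that gave them a value. The long-fraction count of Notch genes called was 1 and became 2 with a mean of at least 1%, 2 on the arcsine square root scale, 2 in 1 fit over both fractions, and 0 to 2 when a library was left out; each count of 2 is Jag2 with Dll1. In the fit over both fractions, which tests only genes in all 12 libraries, 1 Notch gene and 1575 of 5309 genes were called in the short fraction. The long-fraction count over all genes, 1422, ran from 885 to 1528 when a library was left out. The count of genes whose change differed between fractions, 250, ran from 125 to 441. With the replicate number as a block, 652 genes and 0 Notch genes were called in the long fraction (Jag2 limma adjusted p = 0.0906), and 2114 genes and 3 Notch genes in the short fraction. Control and induced mice with the same number are different animals. Their deviations from the group means had correlations of -0.0498 to 0.0736, against -0.0772 to 0.0838 for different numbers. These values show no pairing by number, but with so few mice they cannot exclude a batch shared by number. The reads behind the levels are unknown, so how far depth limits each gene cannot be given.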
